A study of Sus scrofa with 8 samples.

Results

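The genes described here are a fixed set of hair follicle genes in skin of Yorkshire swine: the keratins of the inner root sheath and of the hair shaft, the keratin of the companion layer, 3 structural genes of the shaft and 12 regulators of follicle growth. They were taken by gene symbol from the annotated count table, where 33 of the 35 listed symbols had a row, each with 1 Ensembl gene, of 31907 genes in all. KRT86 and TCHH had no row under these symbols and were dropped. All 33 members passed the filter on low counts that left 19862 genes for testing, and 31 of them averaged at least 1 CPM, the count of a gene scaled to the library total.

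A hair grows from matrix cells at the base of the follicle, next to a cluster of dermal cells called the dermal papilla. The matrix gives rise to concentric layers: the hair shaft in the middle, the inner root sheath that moulds it, and a thin companion layer against the outer root sheath. Each layer fills with its own keratins, which are built as pairs of a type I and a type II chain, and the shaft chains are then cross-linked to keratin-associated proteins. WNT, hedgehog, ectodysplasin and fibroblast growth factor signals, read by a small set of transcription factors, control the growth of the matrix and the switch between layers. Pig skin carries sparse bristles, so a small biopsy can hold few follicles.

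Interleukin-15 (IL-15) is a cytokine that acts on T cells and natural killer cells. The study compared 4 skin sites biopsied 3 h after an intradermal injection of 200 ng IL-15 in 100 µl saline with 4 sites that received no injection, in 2 wild-type animals called pig 13 and pig 14. The injected sites were 12c and 12e of pig 13 and 12c and 12d of pig 14, and the control sites were 6b and 7b of pig 13 and 6b and 7e of pig 14. Values of a gene are given in this order of sites. Injected sites all carry the site number 12 and control sites 6 or 7, so position and injection cannot be told apart, and no site received saline alone. The p-values measure the spread between sites within these 2 pigs.

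Total RNA of each biopsy was depleted of ribosomal RNA and sequenced, with 28471089 to 36070107 counts assigned to genes per biopsy. At this depth the lowest count of any member in any biopsy was 7, for FGF5. Expression is given as CPM after TMM scaling, which corrects library totals for composition. Levels of different genes are compared as RPKM, the same value per kilobase of the gene length in the deposited table. Across all genes edgeR's quasi-likelihood test with pig as a block called 7 genes higher and 0 lower at injected sites (adjusted p under 0.05).

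The control sites of pig 13 stood apart from the other biopsies for these genes, on opposite sides. Site 7b was the lowest of the 8 biopsies for 29 of the 33 members and for 17 of the 18 keratins, whereas 18.3% of all tested genes were lowest there. Site 6b was the highest for 17 of the 33 members, against 13.4% of all tested genes. All 33 members were higher at 6b than at 7b, by 1.29-fold to 8.48-fold with a median of 2.89-fold, whereas the median ratio over the 16693 tested genes with a mean of at least 1 CPM was 0.98. The control sites of pig 14 were closer, with a median 7e to 6b ratio of 1.31 over the members. The highest biopsy exceeded the lowest by a median of 3.74-fold over the members and 1.65-fold over all tested genes with a mean of at least 1 CPM. In bulk tissue, fewer follicles in a biopsy and less RNA per follicle cell cannot be told apart.

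**Figure D1:**
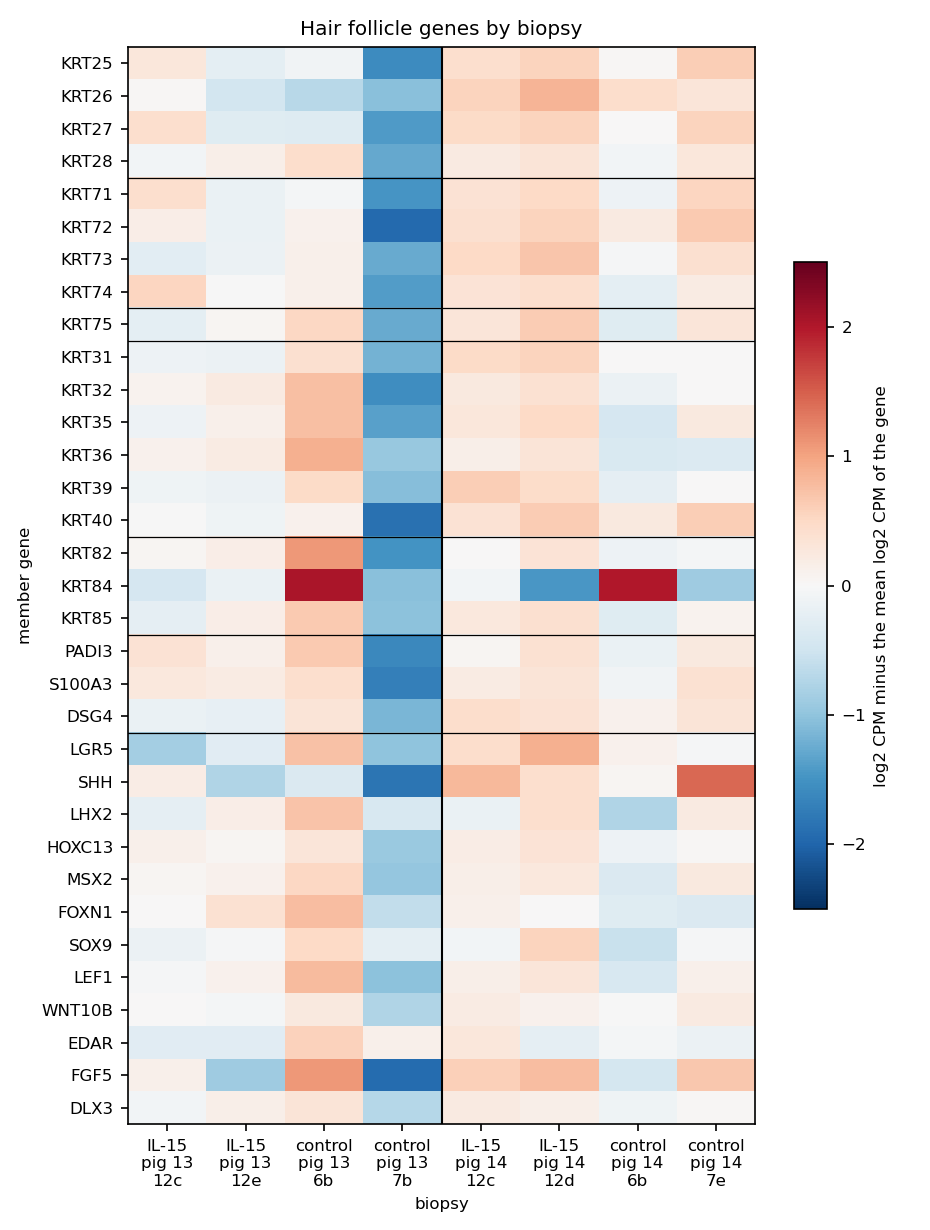
Expression of the 33 members (rows, with lines between gene groups) in the 8 biopsies (columns, pig 13 left and pig 14 right of the vertical line), as log2 CPM minus the mean log2 CPM of the gene, red above and blue below that mean. Control site 7b of pig 13 is the bluest column, lowest for 29 of 33 members, and control site 6b of pig 13 is the highest for 17.

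In summed CPM, site 7b of pig 13 was also at an end of the range for 7 of 11 lists of markers of skin cell types and of the cell cycle. Its summed CPM was 22133 for 8 of 9 basal keratinocyte markers found (7724 to 16554 elsewhere) and 23044 for 12 of 14 markers of differentiated keratinocytes (5197 to 12060 elsewhere). It was 19421 for 8 of 8 fibroblast markers, against 77177 to 192904 elsewhere. The 8 of 10 sebaceous gland markers found summed to 19.0 CPM there and to 29.3 to 50.5 CPM elsewhere, and the 5 of 9 sweat gland markers to 138 CPM and 229 to 393 CPM. The 7 of 9 cell cycle genes were at 174 CPM, against 104 to 129 CPM. None of these markers was at 0 in every biopsy. The 8 adipocyte markers were lowest at both control sites of pig 13, at 662 CPM (7b) and 665 CPM (6b), with 748 to 3258 CPM elsewhere. Site 7b lay inside the range of the other biopsies for the remaining 4 lists: 94.4 CPM for 8 of 8 melanocyte markers (80.2 to 107 elsewhere), 946 CPM for 8 of 8 smooth muscle markers (924 to 1150.4), 10.4 CPM for 6 of 8 skeletal muscle markers (9.34 to 14.5) and 445 CPM for 7 of 8 leukocyte markers (240.0 to 615). Summed as RPKM instead, the leukocyte markers were highest at site 7b, at 268 RPKM against 73.7 to 146 RPKM elsewhere. Injected and control ranges overlapped for each of the lists given next. Basal keratinocyte markers spanned 12494 to 16554 CPM at injected and 7724 to 22133 CPM at control sites, differentiated keratinocyte markers 5197 to 11869 and 8306 to 23044 CPM, and fibroblast markers 77716 to 190838 and 19421 to 192904 CPM. The same ranges were 29.3 to 50.5 and 19.0 to 47.9 CPM for sebaceous gland, 229 to 376 and 138 to 393 CPM for sweat gland, 748 to 2970 and 662 to 3258 CPM for adipocyte and 104 to 125 and 111 to 174 CPM for cell cycle genes. The part of cell makeup in the results below was not tested.

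The follicle keratins ranged over 3 orders of magnitude per unit length. KRT31, a type I keratin of the shaft cortex, had the highest level of the set at 705 ± 221 RPKM (SD over the 8 biopsies) and ranked 73 of 19862 tested genes. KRT71, a type II keratin found in all layers of the inner root sheath, followed at 618 ± 213 RPKM, and KRT25, a type I inner root sheath keratin, was at 542 ± 196 RPKM. The ranges of these neighbours over the 8 biopsies overlapped, and their order within each biopsy was not tested. S100A3, a calcium-binding protein of the hair cuticle, was as abundant at 613 ± 191 RPKM. KRT27 (230 RPKM), KRT85 (136 RPKM), KRT32 (123 RPKM) and KRT74 (111 RPKM) came next, and KRT26 (1.88 RPKM) and KRT84 (0.61 RPKM) had the lowest keratin levels. The regulators reached from 28.9 RPKM for MSX2 and 24.4 RPKM for DLX3 down to 0.50 RPKM for SHH and 0.21 RPKM for FGF5.

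On the Sscrofa11.1 assembly the 10 type I keratin members lie on chromosome 12 between 21152991 and 21709922, all on the plus strand, and the 8 type II members on chromosome 5 between 17679105 and 17967090, all on the minus strand. Within each cluster the hair keratins and the inner root sheath keratins occupy separate stretches. From the start of KRT36, the hair keratins KRT35, KRT32, KRT31, KRT40 and KRT39 start within 339 kb, and the inner root sheath keratins KRT28, KRT27, KRT26 and KRT25 at 506 to 550 kb. On chromosome 5 the hair keratins KRT85, KRT84 and KRT82 come first, then KRT75 at 70.4 kb, and the inner root sheath keratins KRT71, KRT74, KRT72 and KRT73 at 217 to 277 kb. Neighbours differed widely in level: KRT26 at 1.88 RPKM lies between KRT27 at 230 RPKM and KRT25 at 542 RPKM, and KRT84 at 0.61 RPKM between KRT85 at 136 RPKM and KRT82 at 64.3 RPKM.

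**Figure D2:**
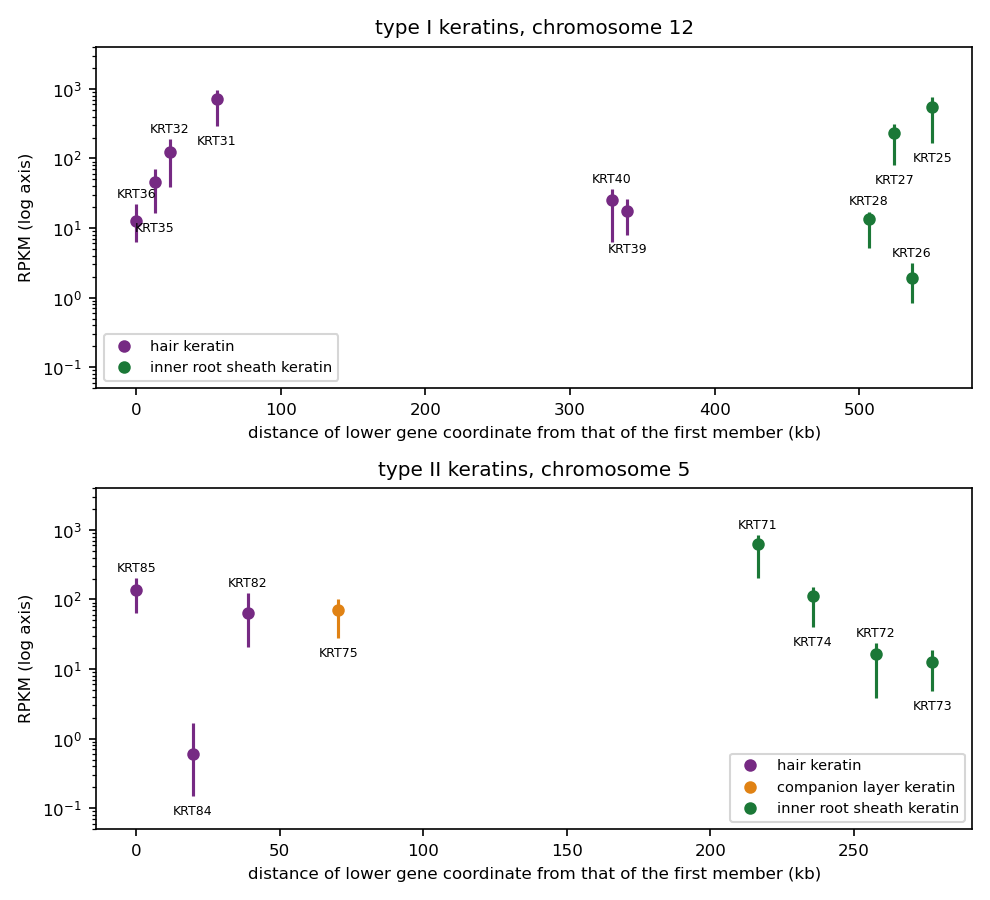
Level of each keratin member along its cluster, with the distance of its lower coordinate from that of the first member in kb on the horizontal axis and RPKM on a log axis (point, mean of 8 biopsies; line, lowest to highest biopsy). KRT26 and KRT84 sit far below the genes on either side of them.

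None of the 8 inner root sheath keratins passed the test between injected and control sites, and no member of the whole set did, against 0.0352% of all tested genes called higher and 0% called lower. All 8 had fold changes above 0, from 0.18 to 0.56 on the log2 scale with a median of 0.44. These keratins harden early and form the rigid tube that shapes the growing hair.

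The type I chains KRT25, KRT27 and KRT28 are made in all layers of the inner root sheath. KRT25 (ENSSSCG00000017464) was measured at 1064 and 741 CPM at the injected and 824 and 295 CPM at the control sites of pig 13, and 1166 and 1293 against 893 and 1349 CPM in pig 14. KRT27 (ENSSSCG00000017462) was measured at 457 and 278 CPM at the injected and 274 and 128 CPM at the control sites of pig 13, and 475 and 504 against 344 and 503 CPM in pig 14. KRT28 (ENSSSCG00000017461) was measured at 16.7 and 19.4 CPM at the injected and 23.9 and 7.27 CPM at the control sites of pig 13, and 20.6 and 21.9 against 16.7 and 21.4 CPM in pig 14. In each of these genes site 7b of pig 13 was far below the rest and the injected and control sites of pig 14 overlapped. KRT27 was the exception in pig 13, where both injected sites lay above both controls. The log2 fold changes were 0.41 ± 0.32 (SE) for KRT25, 0.54 ± 0.28 for KRT27 and 0.18 ± 0.32 for KRT28, with edgeR adjusted p of 0.964, 0.964 and 0.973.

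KRT26, a keratin of the inner root sheath cuticle, had the smallest unadjusted p of all members. KRT26 (ENSSSCG00000017463, chromosome 12, 21689199 to 21695847) was measured at 2.49 and 1.77 CPM at the injected and 1.51 and 1.17 CPM at the control sites of pig 13, and 3.57 and 4.39 against 3.28 and 3.00 CPM in pig 14, from 43 to 127 counts. Its injected sites lay above the control sites within each pig. It was the only member of the 33 with this order in both pigs, a share close to the 3.11% of all tested genes. The log2 fold change was 0.50 ± 0.21 (SE), with a 95% confidence interval of 0.04 to 0.96, an unadjusted p of 0.036 and an edgeR adjusted p of 0.964. KRT26 shares 214 exon bases with an unnamed protein-coding gene on the opposite strand (ENSSSCG00000043259), which had 30 to 88 counts per biopsy. Whether strand was used in the counting was not stated, so where they overlap the reads of these genes cannot be told apart.

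Among the type II inner root sheath keratins, KRT71 (ENSSSCG00000000247) stood at 1782 and 1178 CPM at the injected and 1277 and 476 CPM at the control sites of pig 13, and 1713 and 1881 against 1219 and 1930.5 CPM in pig 14. KRT74 (ENSSSCG00000028334), which is found in the Huxley layer, stood at 402 and 275 CPM at the injected and 303 and 105 CPM at the control sites of pig 13, and 352 and 368 against 232 and 320.4 CPM in pig 14. The injected sites of pig 14 lay above its controls for KRT74 but not for KRT71, whose highest biopsy was control site 7e of pig 14. KRT72 and KRT73 are keratins of the sheath cuticle. KRT72 (ENSSSCG00000000249) stood at 25.5 and 20.2 CPM at the injected and 24.7 and 5.93 CPM at the control sites of pig 13, and 30.0 and 33.7 against 26.5 and 35.7 CPM in pig 14. KRT73 (ENSSSCG00000000250) stood at 16.3 and 17.8 CPM at the injected and 21.4 and 8.17 CPM at the control sites of pig 13, and 28.0 and 31.8 against 19.2 and 25.9 CPM in pig 14. Log2 fold changes were 0.47 ± 0.31 (SE) for KRT71, 0.31 ± 0.41 for KRT72, 0.31 ± 0.26 for KRT73 and 0.56 ± 0.31 for KRT74, and every interval included 0. For KRT74, the largest estimate of the set, the 95% interval was -0.17 to 1.28.

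KRT75, the type II keratin of the companion layer, which lets the inner root sheath slide along the outer one, was also lowest at site 7b of pig 13. KRT75 (ENSSSCG00000000236) was found at 171 and 217 CPM (injected) and 113 and 172 CPM (control) in pig 14, and 117 and 144 (injected) and 199 and 58.5 CPM (control) in pig 13. Its log2 fold change was 0.24 ± 0.37 (SE; edgeR adjusted p = 0.971).

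The 9 hair keratins, which make up the shaft itself, did not pass the test between injected and control sites either: 8 had estimates above 0 and KRT84 below, with a median of 0.25 on the log2 scale. For 6 of the 9 the highest biopsy was control site 6b of pig 13. KRT31 (ENSSSCG00000021668, chromosome 12, 21208856 to 21213827) was found at 1490.0 and 1571 CPM (injected) and 1079.6 and 1087 CPM (control) in pig 14, and 981 and 977 (injected) and 1416 and 474 CPM (control) in pig 13. In pig 14 both injected sites lay above both controls, while in pig 13 both lay between the controls. KRT32 (ENSSSCG00000017439), of the hair cuticle, was found at 157 and 173 CPM (injected) and 119 and 134 CPM (control) in pig 14, and 139 and 155 (injected) and 221 and 44.7 CPM (control) in pig 13. KRT35 (ENSSSCG00000017438), which appears early in the forming cortex and cuticle, was found at 131 and 152 CPM (injected) and 80.4 and 128 CPM (control) in pig 14, and 99.2 and 118 (injected) and 183 and 42.1 CPM (control) in pig 13. KRT36 (ENSSSCG00000017437) was found at 32.7 and 36.9 CPM (injected) and 22.5 and 23.4 CPM (control) in pig 14, and 32.0 and 33.8 (injected) and 54.7 and 15.2 CPM (control) in pig 13. As for KRT31, the injected sites of these 3 genes lay above both controls in pig 14 and between the controls in pig 13. Unlike KRT31, their highest biopsy was site 6b of pig 13.

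Of the late keratins, KRT39 had the same order of injected and control sites within each pig as KRT31. For KRT40 the injected and control sites of pig 14 overlapped. KRT39 (ENSSSCG00000017458) was present at 39.3 and 35.4 CPM (injected) and 22.0 and 25.9 CPM (control) in pig 14, and 23.9 and 23.2 (injected) and 35.6 and 12.3 CPM (control) in pig 13. KRT40 (ENSSSCG00000036987) was present at 38.4 and 46.2 CPM (injected) and 35.2 and 45.4 CPM (control) in pig 14, and 29.6 and 27.5 (injected) and 31.8 and 8.19 CPM (control) in pig 13. The 4 sites of pig 14 lay above the 4 sites of pig 13 for KRT40, and for KRT39 injected site 12c of pig 14 was the highest.

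Of the type II hair keratins, KRT85 is the partner of the early type I chains and KRT82 marks the hair cuticle. KRT85 (ENSSSCG00000000240) was present at 589 and 648 CPM (injected) and 400.1 and 524 CPM (control) in pig 14, and 420.0 and 551 (injected) and 779.9 and 244 CPM (control) in pig 13. KRT82 (ENSSSCG00000000235) was present at 93.8 and 119 CPM (injected) and 85.8 and 90.5 CPM (control) in pig 14, and 96.8 and 105 (injected) and 198 and 33.03 CPM (control) in pig 13. In both genes site 6b of pig 13 was the highest biopsy and site 7b the lowest, and the injected sites of pig 14 lay above its controls. The log2 fold changes of the 8 hair keratins other than KRT84 lay between 0.04 ± 0.50 (SE, KRT82) and 0.31 ± 0.31 (KRT39), with the intervals -1.18 to 1.26 and -0.43 to 1.04.

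KRT84, a type II hair keratin known above all from the filiform papillae of the tongue, followed another pattern. KRT84 (ENSSSCG00000000241, chromosome 5, 17698791 to 17706941) was measured at 0.64 and 0.76 CPM at the injected and 3.48 and 0.41 CPM at the control sites of pig 13, and 0.81 and 0.31 against 3.40 and 0.46 CPM in pig 14. Site 6b of both pigs was high, with 115 counts in pig 13 and 89 in pig 14, and the other 6 sites had 9 to 24 counts each. The log2 fold change was -1.62 ± 0.79 (SE; 95% interval -3.45 to 0.22; edgeR adjusted p = 0.964), so the injected sites did not differ from the controls beyond the spread between sites. KRT84 was also the only keratin whose lowest biopsy was not site 7b of pig 13. The 2 high sites share a label, 6b, that no injected site carries.

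The structural genes of the shaft had estimates above 0 in 3 of 3 cases, none past the threshold. S100A3 (ENSSSCG00000006579) was detected at 435 and 419 CPM at the injected and 488 and 111 CPM at the control sites of pig 13, and 417 and 456 against 342 and 473 CPM in pig 14. PADI3 (ENSSSCG00000003482), the enzyme that converts arginine to citrulline in S100A3 and other follicle proteins, was detected at 46.0 and 39.2 CPM at the injected and 56.6 and 11.7 CPM at the control sites of pig 13, and 37.1 and 46.8 against 32.3 and 42.4 CPM in pig 14. DSG4 (ENSSSCG00000020740), a desmosomal cadherin that holds shaft cells together, was detected at 74.9 and 73.0 CPM at the injected and 105 and 38.4 CPM at the control sites of pig 13, and 114 and 108 against 90.7 and 106 CPM in pig 14. Each was lowest at site 7b of pig 13, by 2.74-fold to 4.83-fold below site 6b of the same pig. The log2 fold changes were 0.31 ± 0.41 (SE) for S100A3, 0.25 ± 0.44 for PADI3 and 0.11 ± 0.27 for DSG4.

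None of the 12 regulators passed the test between injected and control sites: 10 had log2 fold changes above 0 and EDAR and FGF5 below, with a range of -0.26 to 0.29 and a median of 0.12. Site 6b of pig 13 was the highest biopsy for 8 of the 12 and site 7b the lowest for 9. The spread between sites was smaller for some of them than for the keratins, as the 95% interval of -0.25 to 0.62 for DLX3 shows.

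Among the ligands and receptors, WNT10B is a WNT ligand of the hair matrix and LGR5 is the R-spondin receptor of follicle stem cells. WNT10B (ENSSSCG00000000182) read 6.33 and 5.95 CPM (injected) and 5.50 and 6.39 CPM (control) in pig 14, and 5.57 and 5.29 (injected) and 6.53 and 3.28 CPM (control) in pig 13. It shares 909 exon bases with WNT1 on the opposite strand, and WNT1 had 0 to 2 counts per biopsy. LGR5 (ENSSSCG00000030511) read 20.7 and 28.3 CPM (injected) and 16.5 and 14.9 CPM (control) in pig 14, and 8.41 and 12.6 (injected) and 25.2 and 7.54 CPM (control) in pig 13. Log2 fold changes were 0.10 ± 0.21 (SE) for WNT10B and 0.00 ± 0.43 for LGR5, and the LGR5 interval reached from -1.03 to 1.04.

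EDAR (ENSSSCG00000008134), the receptor of ectodysplasin, read 2.91 and 2.04 CPM (injected) and 2.33 and 2.15 CPM (control) in pig 14, and 1.96 and 1.97 (injected) and 3.57 and 2.62 CPM (control) in pig 13. In pig 13 both injected sites lay below both controls, the only member with that order, against 16.6% of all tested genes. EDAR, LHX2 and SOX9 were the 3 members for which the median of the other 7 biopsies was under 1.5 times site 7b of pig 13. Its log2 fold change was -0.26 ± 0.24 (SE; 95% interval -0.79 to 0.26; edgeR adjusted p = 0.964). SHH, the hedgehog ligand made by the matrix, had 8 to 59 counts per biopsy and FGF5, the signal that ends hair growth, had 7 to 51, both with a mean under 1 CPM. Their log2 fold changes were 0.17 ± 0.44 (SE) and -0.02 ± 0.57.

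The transcription factors of the matrix and shaft were next. HOXC13 (ENSSSCG00000000279), which binds hair keratin genes, amounted to 14.7 and 14.0 CPM at the injected and 16.7 and 7.10 CPM at the control sites of pig 13, and 15.3 and 17.2 against 12.3 and 13.7 CPM in pig 14. FOXN1 (ENSSSCG00000017762), the gene mutated in nude mice, amounted to 63.2 and 81.5 CPM at the injected and 107 and 41.0 CPM at the control sites of pig 13, and 68.7 and 63.1 against 50.6 and 48.6 CPM in pig 14. MSX2 (ENSSSCG00000034500), a homeobox factor of the matrix, amounted to 24.8 and 25.7 CPM at the injected and 34.2 and 12.3 CPM at the control sites of pig 13, and 26.7 and 28.9 against 18.6 and 28.4 CPM in pig 14. For HOXC13 and FOXN1 the injected sites of pig 14 lay above its controls, and for FOXN1 site 6b of pig 13 exceeded every other biopsy. LEF1 (ENSSSCG00000009148), the nuclear partner of beta-catenin, amounted to 51.9 and 57.1 CPM at the injected and 92.0 and 26.1 CPM at the control sites of pig 13, and 59.2 and 65.7 against 40.3 and 58.0 CPM in pig 14. DLX3 (ENSSSCG00000017589), a homeobox factor of matrix and sheath, amounted to 61.3 and 71.3 CPM at the injected and 80.7 and 39.3 CPM at the control sites of pig 13, and 75.5 and 71.4 against 59.9 and 66.1 CPM in pig 14. Both were highest at site 6b and lowest at site 7b of pig 13. The log2 fold changes were 0.29 ± 0.22 (SE) for HOXC13, 0.19 ± 0.28 for FOXN1, 0.18 ± 0.29 for MSX2, 0.11 ± 0.37 for LEF1 and 0.18 ± 0.19 for DLX3.

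SOX9 and LHX2 are transcription factors of follicle stem cells, SOX9 also of the outer root sheath. SOX9 (ENSSSCG00000017251) came to 36.0 and 39.2 CPM at the injected and 56.6 and 33.8 CPM at the control sites of pig 13, and 38.0 and 58.4 against 27.1 and 39.3 CPM in pig 14. LHX2 (ENSSSCG00000005586) came to 7.14 and 9.33 CPM at the injected and 13.6 and 6.34 CPM at the control sites of pig 13, and 7.43 and 11.07 against 4.96 and 9.71 CPM in pig 14. Unlike most members, both were lowest at control site 6b of pig 14. The log2 fold changes were 0.13 ± 0.25 (SE) and 0.02 ± 0.31.

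Over the whole set, 30 of the 33 members had a log2 fold change above 0 and 3 (KRT84, EDAR and FGF5) below, with a median of 0.20, whereas 48.2% of all tested genes were above 0 with a median of -0.01. No member's 4 injected sites lay all above or all below the 4 control sites, which 1.15% and 0.916% of all tested genes did. The adjusted p was 0.964 or higher for each member in edgeR's test. An unadjusted p under 0.05 was reached by 1 member (KRT26), against 4.54% of all tested genes. DESeq2 called 0 members, against 0.242% of all tested genes called higher and 0.0503% lower. It gave 4 members an unadjusted p under 0.05, against 4.70% of all tested genes. In the same comparison 12 of 12 differentiated keratinocyte markers had estimates below 0 (median -0.49) and 8 of 8 adipocyte markers above 0 (median 0.82), with 0 called. In edgeR's test 5 of these 12 and 0 of these 8 had an unadjusted p under 0.05, against 4.54% of all tested genes. The part of these markers in the result of the members was not tested. The direction of the members changed with the control sites of pig 13 that were kept. Without site 7b, 13 members were above 0 and 20 below, with a median of -0.02. Without the other control site of that pig, 6b, 31 were above 0 and 2 below, with a median of 0.65, and 19 had an unadjusted p under 0.05, against 7.85% of all genes tested in that fit, but 0 were called. Leaving out any 1 of the other 6 biopsies gave medians of 0.15 to 0.28. The biological coefficient of variation fitted across all genes was 19.8%.

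**Figure D3:**
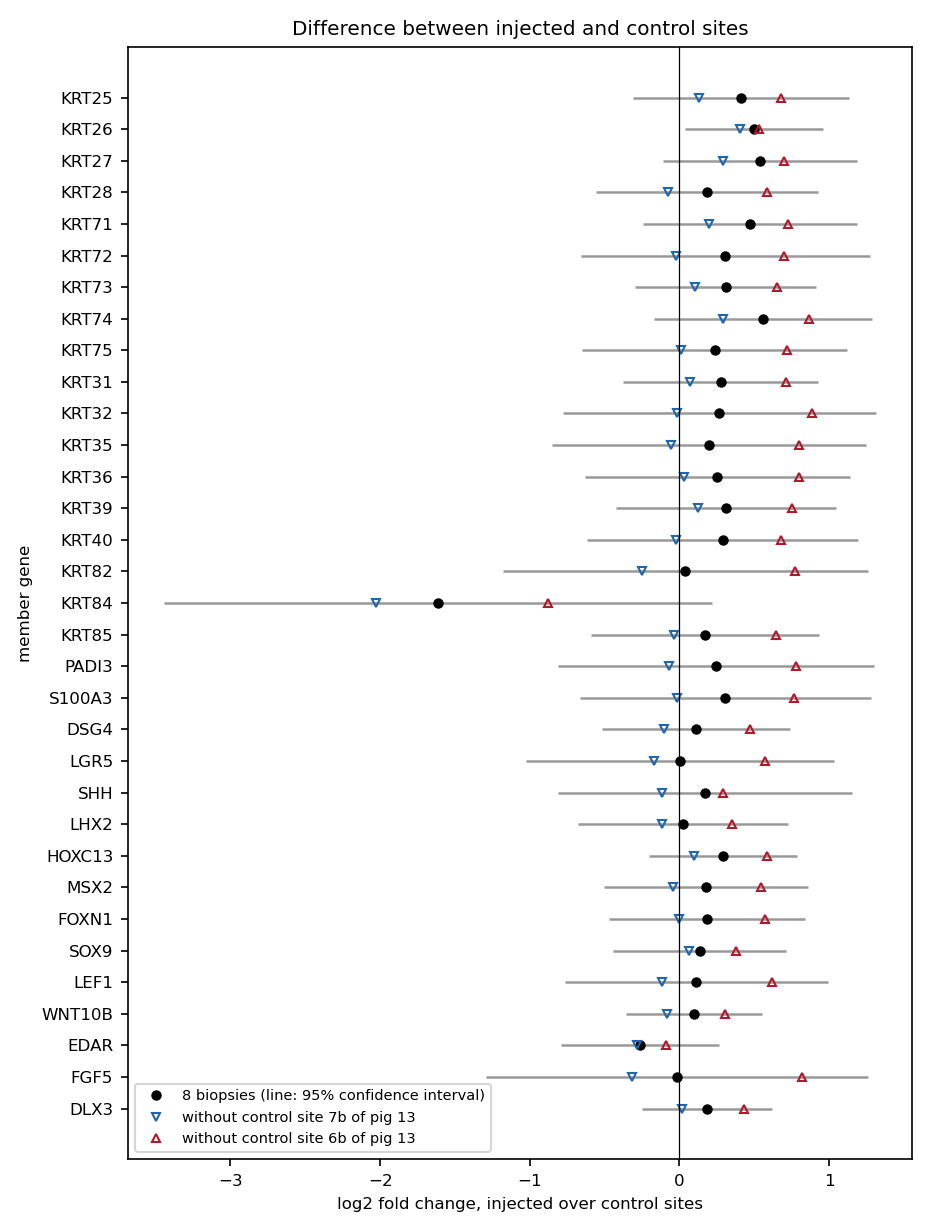
Log2 fold change of each member between injected and control sites, with the 95% confidence interval (black point and grey line, 8 biopsies), without control site 7b of pig 13 (blue triangle) and without control site 6b of pig 13 (red triangle). The 33 estimates have a median of 0.20, which moves to -0.02 without site 7b and to 0.65 without site 6b.

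Within-pig values differed in how many members separated the injected from the control sites. In pig 14, the injected sites lay above both controls for 16 of 33 members and below for 0, against 20.5% and 21% of all tested genes. These were KRT26, KRT73 and KRT74 of the inner root sheath, the hair keratins KRT31, KRT32, KRT35, KRT36, KRT39, KRT82 and KRT85, and DSG4, LGR5, HOXC13, FOXN1, LEF1 and DLX3. In pig 13 this order held for KRT26 and KRT27, against 18.2% of all tested genes. The median log2 fold change was 0.32 in pig 14 (31 above 0, 2 below) and 0.12 in pig 13 (20 above, 13 below). For the inner root sheath keratins the medians were 0.20 in pig 14 and 0.68 in pig 13, and for the hair keratins 0.42 and -0.05.

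The difference of the injection response between the pigs was tested with an interaction term. No member was called by edgeR, as was 0% of all tested genes in each direction. An unadjusted p under 0.05 was reached by 0 members, against 8.22% of all tested genes. The smallest was 0.0951 (EDAR, 0.79 ± 0.43 (SE), pig 14 minus pig 13). Without control site 6b of pig 13, which leaves site 7b as the lone control of that pig, 6 members were called (KRT32, KRT40, KRT72, KRT82, PADI3 and S100A3), all with the response lower in pig 14 and differences of -1.33 to -1.91, against 0.843% of all genes called in that direction in the same fit. In that fit the lone site is assumed to vary like the other groups. Both injected sites of pig 13 lay above site 7b for these members and, except for KRT72, below site 6b. The direction of the pig 13 response therefore depends on which of its control sites is kept.

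The sheath and shaft keratins of the set did not keep a fixed proportion between biopsies. The summed level of the 8 inner root sheath keratins was 1849.6 RPKM at site 12c and 1245 RPKM at site 12e of pig 13, against 1352 RPKM at its control 6b and 507 RPKM at its control 7b. In pig 14 it was 1884 and 2059 RPKM at the injected sites 12c and 12d, and 1379 and 2090.1 RPKM at the controls 6b and 7e. The 9 hair keratins summed to 990.2 and 1047 RPKM at the injected and 1540.4 and 455 RPKM at the control sites of pig 13, and to 1393 and 1502 against 1015 and 1095 RPKM in pig 14. The ratio of these sums was therefore lowest at site 6b of pig 13, at 0.88. It was highest at control 7e of pig 14, at 1.91, and at injected 12c of pig 13, at 1.87. The other 5 biopsies had ratios of 1.12 to 1.37, including site 7b of pig 13, where both sums were low. Injected sites ranged from 1.19 to 1.87 and control sites from 0.88 to 1.91, so the groups overlapped. The shaft sum leaves out 11 rows known only by description as hair keratins, which summed to 1499.8 to 4941 RPKM per biopsy. The ratio therefore does not compare all sheath with all shaft keratins, and its order over the biopsies holds for the members only.

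**Figure D4:**
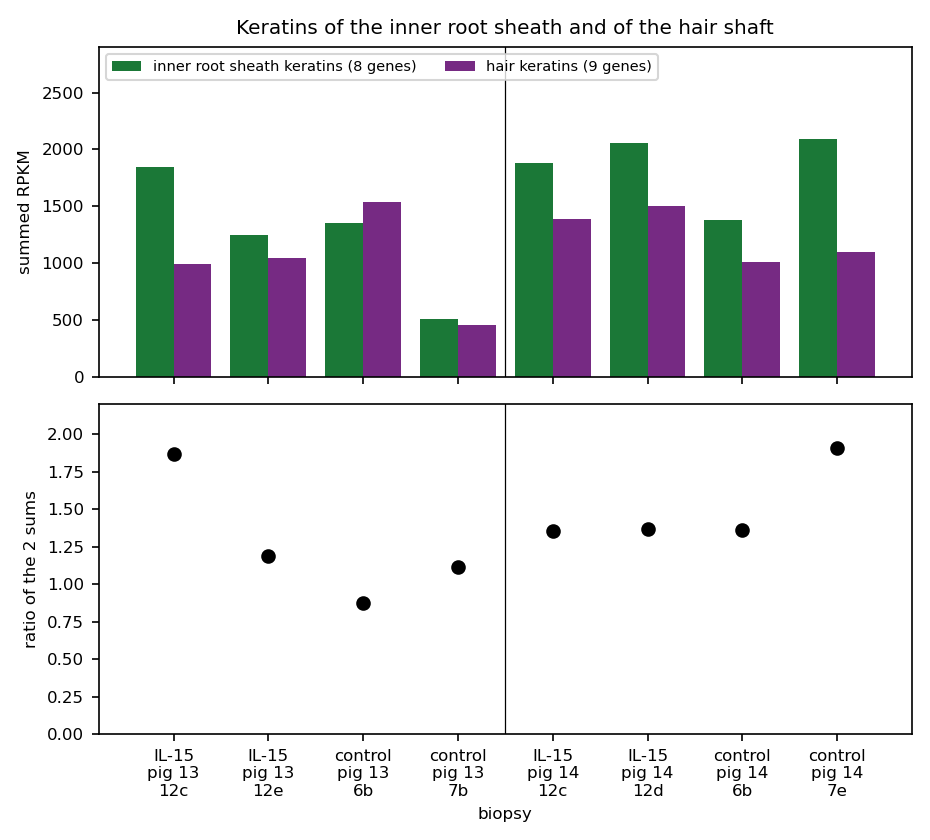
Summed RPKM of the 8 inner root sheath keratins (green) and the 9 hair keratins (purple) in each biopsy, and below it the ratio of the sums, with pig 13 left and pig 14 right of the vertical line. Both sums are smallest at control 7b of pig 13, and the ratio ranges from 0.88 at control 6b of pig 13 to 1.91 at control 7e of pig 14. Hair keratin rows known only by description are not in the sums.

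Between the pigs, KRT26 was higher in pig 14 and no other member passed the test. The 4 sites of pig 14 read 3.00 to 4.39 CPM and those of pig 13 1.17 to 2.49 CPM, and the log2 difference was 1.05 ± 0.21 (SE; 95% interval 0.59 to 1.52; edgeR adjusted p = 0.0112). This is 1 of 33 members, against 6.39% of all tested genes called higher in pig 14 and 4.34% called higher in pig 13. The overlapping gene on the opposite strand had 30 to 71 counts in pig 14 and 48 to 88 in pig 13. SHH (1.30 ± 0.45), KRT73 (0.71 ± 0.26) and KRT27 (0.74 ± 0.28) had unadjusted p of 0.0148, 0.0271 and 0.0312 and adjusted p of 0.0908, 0.13 and 0.142. All 8 inner root sheath keratins had estimates above 0, with a median of 0.72, whereas 6 of the 9 hair keratins did, with a median of 0.10. This contrast holds for the members only. The 10 tested rows known only by description as hair keratins had a median of 0.65, with 1 called higher in pig 14 and 0 in pig 13. The 4 sites of pig 14 lay above those of pig 13 for 3 members (KRT26, KRT72 and KRT40) and below for 0, against 9.87% and 8.73% of all tested genes. The control sites of pig 13 touch this comparison too. Without site 6b of pig 13, 7 members were called higher in pig 14 (KRT26, KRT31, KRT39, KRT73, KRT75, DSG4 and LGR5), against 6.23% of all genes in that fit. Without site 7b, 2 were (KRT26 and KRT40), against 6.13%. With the 4 control sites alone, 0 were called, against 1.93%, and 3 had an unadjusted p under 0.05, against 20.1% of all tested genes. DESeq2 called 4 (KRT26, KRT27, KRT73 and SHH), against 9.08%.

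Other follicle genes were read from lists of related genes, of which 94 of 126 symbols had a row. No gene on them was called between injected and control sites. Of 17 tested genes of the shaft and inner root sheath, 11 were above 0 and 6 below (median 0.12). GPRC5D (ENSSSCG00000029545), a receptor of the hair cortex, measured 264 and 253 CPM (injected) and 164 and 170.4 CPM (control) in pig 14, and 174 and 157 (injected) and 149 and 85.1 CPM (control) in pig 13, with a log2 fold change of 0.57 ± 0.15 (SE; edgeR adjusted p = 0.807). TCHHL1, a relative of trichohyalin, had 0.71 ± 0.37. PRR9 at 549 RPKM and VSIG8 at 182 RPKM had the highest levels of that list. Of 4 tested keratin-associated proteins named by symbol, 4 were above 0 (median 0.33), with 0.66 ± 0.25 for KRTAP27-1 and 0.37 ± 0.41 for KRTAP24-1.

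The lists for the cells around the shaft had medians closer to 0. Of 15 tested genes of the outer root sheath and follicle stem cells, 9 were above 0 and 6 below (median 0.06), among them KRT79 (0.65 ± 0.33) and CD34 (0.19 ± 0.11), and KRT15 at 162 RPKM was the most abundant. Of 16 tested genes of the dermal papilla and sheath, 7 were above 0 and 9 below (median -0.06), with PROM1 at -0.47 ± 0.23 and FGF10, a fibroblast growth factor of the dermis, at 0.83 ± 0.40. CRABP1 (14.0 RPKM) had the highest level there. The next row carries the symbol VCAN (10.5 RPKM) but a description that names another gene, X-ray repair cross complementing 4, so its identity is uncertain. Of 38 tested genes of follicle signalling, 23 were above 0 and 15 below (median 0.04). FGF22 measured 12.0 and 11.6 CPM (injected) and 9.01 and 8.55 CPM (control) in pig 14, and 13.1 and 12.1 (injected) and 10.1 and 8.14 CPM (control) in pig 13. Its log2 fold change was 0.44 ± 0.12 (SE; edgeR adjusted p = 0.807). BMP2, a ligand that favours differentiation of the matrix, had 0.26 ± 0.11. For FGF22 and BMP2 all 4 injected sites lay above all 4 control sites, as for 1.15% of all tested genes. Both were named for the smallest unadjusted p of their list, so this share does not measure how unusual they are. JAG1 (55.6 RPKM) and CTNNB1, which encodes beta-catenin (45.8 RPKM), were the most abundant.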

How the data were processed

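Skin biopsies of 2 pigs (4 injected, 4 control sites) were profiled by RNA-seq. Per the submitters' processing notes, STAR 2.5.1a, featureCounts 1.4.6-p5 and the Sscrofa11.1 assembly were used; no strand setting is named there or in the labels. The deposited table holds raw counts per gene, with the authors' CPM and RPKM values beside them; these deposited CPM and RPKM values were used only to check file content. All 223956 values compared between the single-sample files and the deposited table were equal; 1 single-sample file ended early (607 complete genes), and the table was used for it. Of 32388 rows, 425 genes sat on several identical rows and were kept as 1 row each.

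Counts were tested with edgeR 4.0.16 (R 4.3.3): filterByExpr with a minimum count of 10, TMM scaling, a robust quasi-likelihood F test with pig and treatment as terms, and Benjamini-Hochberg adjustment over 19862 genes at a threshold of 0.05. The interval and SE of a fold change come from the same fit. CPM and RPKM in the text were computed from the counts with TMM scaling and the deposited gene length. Separate terms gave the difference between pigs, the interaction and the values within each pig. Pig is the block, since sites of 1 pig share an animal.

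Members with a mean of at least 1 CPM are given in every biopsy; of each related list, the 2 tested genes with the smallest unadjusted p and the 2 with the highest mean RPKM are named, and marker lists are given as summed CPM. The members and lists were chosen with earlier results of these data known. The lists taken by row description were chosen after the values were seen. Alternatives were DESeq2 1.42.0, RLE size factors, no filter, no block, each biopsy left out, and each pig alone. The test was tried on simulated data.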

Additional observations from a re-analysis of the deposited data

Results flagged for a closer look

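Single biopsies stood far from the other 3 of their group for 3 members, by Dixon's gap test over 66 groups of 4 sites; chance flags about 1 in 20 groups. FOXN1 was at 107 CPM at control site 6b of pig 13, with the other control sites at 41.0 to 50.6 CPM. SOX9 was at 58.4 CPM at injected site 12d of pig 14, with the other injected sites at 36.0 to 39.2 CPM. EDAR was at 2.91 CPM at injected site 12c of pig 14, with the other injected sites at 1.96 to 2.04 CPM.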

How the results depend on the processing

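Across all alternatives run for the injected and control sites, 0 members were called in either direction. Over all genes, DESeq2 called 48 higher and 10 lower, against 7 and 0 with edgeR, and leaving out each biopsy in turn gave 3 to 19 higher and 0 to 1 lower (19 without control 7b of pig 13, 1 lower without control 6b of pig 13, 3 without injected 12d or without control 6b of pig 14). RLE size factors and no filter changed the direction of 0 members. The members' median log2 fold change ranged from -0.02 to 0.65 when a biopsy was left out. The fit without the block for pig called 6 genes higher, 0 of them members, and FGF5 turned to 0.042. In pig 13 alone, 10 members changed sign: -0.049 (KRT35), -0.088 (KRT36), -0.024 (KRT39), -0.19 (KRT82), -0.076 (KRT85), -0.64 (LGR5), -0.28 (LHX2), -0.036 (FOXN1), -0.26 (SOX9) and -0.12 (LEF1). In pig 14 alone, these were -0.27 (SHH), 0.14 (EDAR) and 0.46 (FGF5). With each biopsy left out in turn, 19 members changed sign at least 1 time, with ranges of -0.25 to 0.77 (KRT82), -0.20 to 0.57 (LGR5), -0.19 to 0.35 (LHX2), -0.074 to 0.38 (SOX9), -0.32 to 0.82 (FGF5), -0.12 to 0.67 (SHH), -0.12 to 0.62 (LEF1), -0.078 to 0.58 (KRT28), -0.024 to 0.70 (KRT72), -0.017 to 0.88 (KRT32), -0.055 to 0.80 (KRT35), -0.022 to 0.68 (KRT40), -0.039 to 0.64 (KRT85), -0.069 to 0.78 (PADI3), -0.018 to 0.77 (S100A3), -0.10 to 0.47 (DSG4), -0.042 to 0.54 (MSX2), -0.00024 to 0.57 (FOXN1) and -0.082 to 0.31 (WNT10B). The cause was not tested.

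Between the pigs, DESeq2 called 4 members higher in pig 14 (9.08% of all tested genes) and edgeR 1 (6.39%); leaving out each biopsy gave 1 to 7 and the control biopsies alone 0, where KRT39 was at -0.017 and LGR5 at -0.076. The median over the members ranged from -0.00028 to 0.67. For the interaction, leaving out each biopsy gave 0 to 6 members called lower in pig 14, and the median ranged from -0.76 to 0.69. Members under 1 CPM (SHH and FGF5), KRT84 and KRT26 rest on few counts.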

Other observations

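Many hair keratins and keratin-associated proteins of the pig have no gene symbol in the deposited table and were found by the text of their row description, a choice made after the values were seen. None was called between injected and control sites by edgeR. The 11 rows described as hair keratins include some of the most abundant follicle transcripts: keratin, type II microfibrillar, component 7C was at 854 RPKM and keratin, type I cuticular Ha3-II at 638 RPKM, against 705 RPKM for KRT31. Keratin 34 measured 1129 and 949 CPM (injected) and 545 and 508 CPM (control) in pig 14, and 492 and 396 (injected) and 385 and 316 CPM (control) in pig 13, with a log2 fold change of 0.66 ± 0.16 (SE; edgeR adjusted p = 0.746). Keratin, type II cuticular Hb6 measured 2366 and 2141 CPM (injected) and 1458 and 1207 CPM (control) in pig 14, and 1371 and 1138 (injected) and 1307 and 774 CPM (control) in pig 13, with 0.51 ± 0.19 (SE). Near-identical copies in these families can share reads, and their values are uncertain.

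The 20 rows of keratin-associated proteins, which cross-link the keratins of the shaft, gave 19 tested genes. They include the 4 keratin-associated proteins named by symbol above, so the lists are not separate. All had estimates above 0 (median 0.37), against 48.2% of all tested genes. In edgeR's test 5 had an unadjusted p under 0.05, against 4.54% of all tested genes. Site 7b of pig 13 was the lowest biopsy for 17 of the 19, against 18.3% of all tested genes. In pig 14 both injected sites lay above both controls for 14 of 19, against 20.5% of all tested genes. In pig 13 they did so for 5, against 18.2%. Keratin-associated protein 9-7 measured 937 and 850.0 CPM (injected) and 234 and 359 CPM (control) in pig 14, and 512 and 384 (injected) and 495 and 271 CPM (control) in pig 13, with a log2 fold change of 0.91 ± 0.33 (SE; edgeR adjusted p = 0.964). Keratin-associated protein 3-3-like measured 844 and 824 CPM (injected) and 343 and 397 CPM (control) in pig 14, and 430.5 and 364 (injected) and 360.1 and 285 CPM (control) in pig 13, with 0.74 ± 0.18 (SE; edgeR adjusted p = 0.754). Keratin-associated protein 13-2-like measured 28.0 and 22.3 CPM (injected) and 17.3 and 15.6 CPM (control) in pig 14, and 5.89 and 3.45 (injected) and 3.02 and 1.80 CPM (control) in pig 13. Its 4 sites of pig 14 lay above all 4 sites of pig 13, as for 9.87% of all tested genes.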
